A study of Mus musculus with 70 samples.

Results

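The chemokine ligands of the mouse were followed through lung, cortex and cerebellum of animals lacking one or the other form of Capicua (Cic). Members were the protein-coding genes whose symbol is Ccl or Cxcl followed by a number and at most 1 letter, plus Cx3cl1 and Xcl1. GENCODE M21 holds 37 such genes, and 35 of them were found among the 50789 gene rows of the count table. Ccl20 and Xcl1 were not analysed here.

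Chemokines are small secreted proteins that bind receptors on leukocytes and direct their migration. Many are made at very low levels in resting tissue and at high levels after inflammatory signals, through NF-kappaB, interferon or STAT6. Others are made constantly, such as Cxcl12, which holds and guides progenitors, and Cx3cl1, which neurons display towards microglia. Several lie in clusters of genes that arose by duplication. Capicua represses transcription, and separate promoters of its gene give a short form (CIC-S) and a long form (CIC-L).

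The lungs came from postnatal day 6 and were handled as batch 1. The cortex and cerebellum came from mice of 12 weeks of age and were batch 2. The genotypes were WT, being littermates pooled from both lines, Cic-S-KO, which lacks the short form, and Cic-L-KO, which lacks the long form. Each of the 9 groups had 8 samples, except for 7 in Cic-S-KO cortex and in Cic-S-KO cerebellum, 70 in all. Batch, age and tissue cannot be told apart between lung and brain, so genotypes were compared within a tissue. Each knockout was set against the same WT samples, so the comparisons share their controls. The labels do not say that the replicates came from separate animals, and the p-values therefore cover the spread between these samples.

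Libraries held 17798655 to 35523037 counts each. The labelled tissues held their defining transcripts. The summed level of 5 alveolar type 2 markers was at least 15455 CPM (counts scaled to a fixed library total) in each lung and at most 101 in each brain sample, and 3 neuron markers summed to at least 2766 CPM in each brain sample and at most 16.5 in each lung. Cic itself, counted over the whole gene, was 139 ± 11.3 CPM (SD, n = 8) in WT lung, 172 ± 10.5 (n = 8) in Cic-S-KO lung and 135 ± 5.62 (n = 8) in Cic-L-KO lung, with single lungs from 128 to 157, 149 to 183 and 131 to 148. In cortex it was 162 ± 8.62, 251 ± 7.64 and 298 ± 17 CPM (n = 8, 7 and 8), with ranges of 150 to 173, 237 to 260 and 269 to 318. In cerebellum the values were 192 ± 14.5, 213 ± 14.6 and 212 ± 13.2 CPM (n = 8, 7 and 8), with ranges of 172 to 212, 183 to 227 and 195 to 230. The whole-gene count does not separate the short form from the long one, so it checks neither knockout.

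Many of the ligands lay in clusters, and positions are given on GRCm38.p6. Cxcl5, Cxcl3, Cxcl15, Cxcl1 and Cxcl2, which bind or resemble ligands of the neutrophil receptor CXCR2, occupied 147 kb of chromosome 5 from 90759360 to 90905938. Cxcl9 and Cxcl10, ligands of the T cell receptor CXCR3, lay further along chromosome 5 from 92321347 to 92348889. Ccl2, Ccl7, Ccl11, Ccl12 and Ccl8 formed 1 cluster of chromosome 11, from 82035571 to 82116799. Ccl5, Ccl9, Ccl6, Ccl3 and Ccl4 formed another cluster there, from 83525778 to 83664683. Ccl22, Cx3cl1 and Ccl17 were neighbours on chromosome 8, from 94745590 to 94812036. Cxcl17 lay on chromosome 7 from 25400053 to 25412886, which is 105893 bases from the end of Cic itself.

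Promoter windows of 250 bases before the gene start, credited to RefSeq on GRCm38.p6, matched 25 of the 35 members. The names without a window were Ccl2, Ccl4, Ccl5, Ccl7, Ccl11, Ccl24, Ccl26, Cxcl5, Cxcl16 and Cxcl17. Both strands were searched for 4 patterns, chosen after these promoters had been looked at. GGANTTTCC, letters of the NF-kappaB type, was found in Cxcl1, Cxcl2, Cxcl3 and Cxcl10 and in 1.07% of 32851 windows of the same length. TGAATGAA, the octamer that Capicua is known to bind, was found in Ccl9 and in 1.08% of windows. Its variant TGAATGGA was found in none of the 25 and in 1.01% of windows. TTCNNNNGAA, letters of the STAT6 type, was found in Ccl17 and in 5.85% of windows. A match is a description of letters and not of a site in use, and each stretch printed here held 1 match.

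The stretches around these matches are shown because all 6 genes had higher counts in Cic-S-KO lung, as given below, and because the 3 neighbours on chromosome 5 carry the same 9 letters at similar distances from their starts. Each reads 5′ to 3′ on the gene's strand, with the match in capitals.
Cxcl3, + strand, chr5:90785979-90786087: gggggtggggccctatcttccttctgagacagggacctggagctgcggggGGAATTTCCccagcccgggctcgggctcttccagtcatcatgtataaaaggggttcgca
Cxcl1, + strand, chr5:90891125-90891233: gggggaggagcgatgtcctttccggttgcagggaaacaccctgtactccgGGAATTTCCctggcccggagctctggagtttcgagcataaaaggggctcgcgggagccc
Cxcl2, + strand, chr5:90903753-90903861: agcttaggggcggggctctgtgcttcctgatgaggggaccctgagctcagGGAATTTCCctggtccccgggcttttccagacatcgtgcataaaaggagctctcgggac
Cxcl10, - strand, chr5:92348989-92349097: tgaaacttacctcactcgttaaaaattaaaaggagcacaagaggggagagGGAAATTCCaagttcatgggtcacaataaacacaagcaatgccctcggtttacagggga
Ccl9, - strand, chr11:83578682-83578789: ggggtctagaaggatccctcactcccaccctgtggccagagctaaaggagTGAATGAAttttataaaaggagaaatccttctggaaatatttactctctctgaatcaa
Ccl17, + strand, chr8:94810249-94810358: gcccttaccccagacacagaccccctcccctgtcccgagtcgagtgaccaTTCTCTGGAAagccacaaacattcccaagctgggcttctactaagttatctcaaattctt
The match began 72 bases before the gene start in Cxcl3, 70 in Cxcl1, 96 in Cxcl2, 158 in Cxcl10, 103 in Ccl9 and 154 in Ccl17.

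The tissues differed in which ligands they made. Levels are given here as the WT median in RPKM, which is CPM divided by the exon length in kilobases, so that genes can be compared. In lung the highest was Cxcl15 (lungkine, made by airway and alveolar epithelium) at 473, followed by Cxcl12 at 34.2, Ccl6 at 33.9 and Cxcl16, a membrane-bound ligand, at 7.82. Cxcl15 was close to absent from the brain, with a highest single-sample value of 0.109 CPM against at least 889 CPM in each lung. In cortex Cx3cl1 (fractalkine) led at 208, then Cxcl14 at 78.1, Ccl27a at 32.4 and Cxcl12 at 4.92. In cerebellum Cxcl14 led at 32.9, then Cx3cl1 at 15.2, Ccl27a at 12.7 and Cxcl12 at 3.86. The cytokine-induced ligands were low in all 3 tissues of WT mice: in lung the WT median was 0.373 RPKM for Cxcl5, 0.0867 for Cxcl3, 0.18 for Cxcl2 and 0.22 for Cxcl10.

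**Figure D1:**
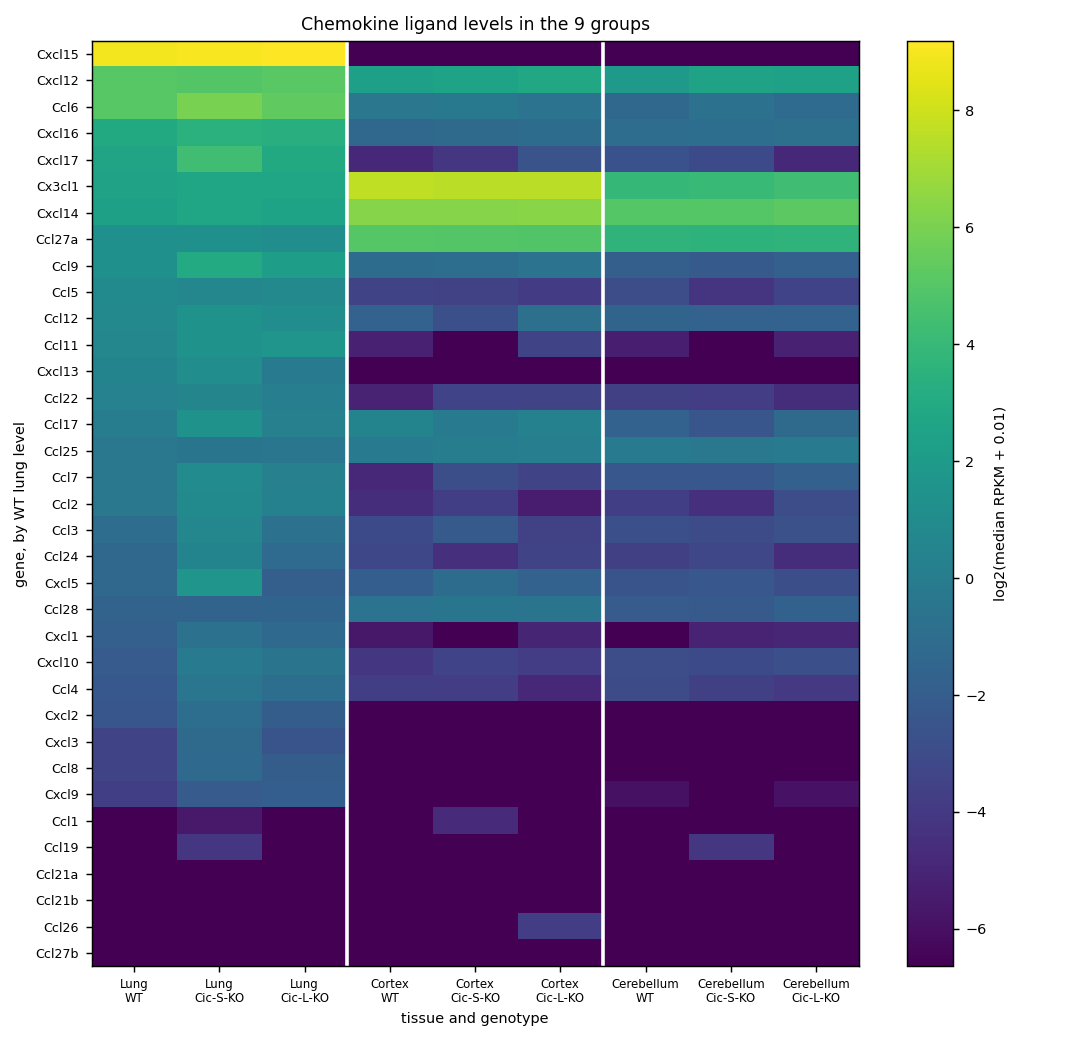
Level of each of the 35 chemokine ligands (rows, ordered by WT lung level) in the 9 groups of tissue and genotype (columns), coloured by log2 of the group median RPKM plus 0.01. Cxcl15 is bright in the lung columns alone, and Cx3cl1, Cxcl14 and Ccl27a are the brightest rows of cortex and cerebellum.

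Counts were tested in lung for 27 members. Ccl1, Ccl19, Ccl21a, Ccl21b, Ccl26 and Ccl27b were near or at 0, and Ccl4 and Ccl8 also missed the filter on low counts. Ccl21a and Ccl21b share 253 stretches of 50 bases, or 30.8% and 71.7% of their stretches. Ccl27a and Ccl27b share 231, or 8.63% and 61.4%. How shared reads were counted is not given in the sources used here, so low counts of Ccl21a, Ccl21b and Ccl27b do not show low expression. In Cic-S-KO lung the median over the 8 lungs was 0.479 CPM for Ccl4 and 0.215 for Ccl8, against 0.132 and 0.0431 in WT. Among the tested members, Ccl3, Cxcl2, Cxcl3 and Cxcl9 reached the filter's level of 0.422 CPM in fewer than 4 WT lungs and passed through the groups where they were higher, so the counts below are not a test of the family.

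In Cic-S-KO lung, 18 of the 35 members were higher than in WT, at a Benjamini-Hochberg adjusted p under 0.05 in edgeR's quasi-likelihood test over all genes, and 0 were lower (22 of the 27 tested had an unadjusted p under 0.05). Of all 16695 genes tested, 15.7% were called in either direction, 9.99% higher and 5.73% lower. The median log2 fold change was 1.01 over the 27 tested members and -0.001 over all genes. By role, 4 of 5 CXCR2-type ligands rose, as did 5 of 7 tested monocyte and inflammatory CC ligands (9 members). Of 4 tested eosinophil and type 2 CC ligands (6 members), 3 rose. So did 4 of 5 constitutive and tissue CXC ligands, 1 of 2 interferon-induced ligands and Cx3cl1. Of the 4 epithelial and mucosal CC ligands, Ccl25, Ccl27a and Ccl28 were tested and not called, and Ccl27b was not tested. As these are whole-tissue RNA samples, more cells of a type and more RNA per cell cannot be told apart.

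**Figure D2:**
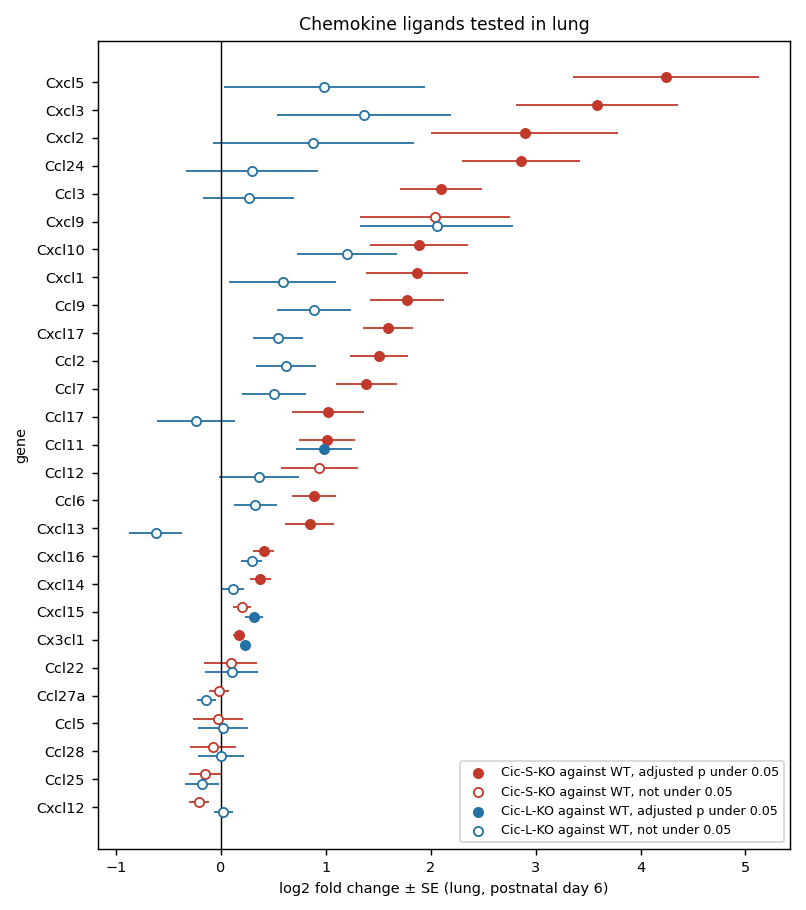
Log2 fold change against WT, with its standard error, for the 27 chemokine ligands tested in lung at postnatal day 6, in Cic-S-KO (red) and Cic-L-KO (blue), filled where the adjusted p was under 0.05. The Cic-S-KO points run from -0.21 for Cxcl12 to 4.24 for Cxcl5 and 18 of them are filled, while 3 of the Cic-L-KO points are.

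Cxcl5, an epithelial attractant of neutrophils, had the highest fold change. It ranged from 0.132 to 2.69 CPM in the 8 WT lungs (median 0.696) and from 2.7 to 59.3 CPM in the 8 Cic-S-KO lungs (median 5.7). All 8 Cic-S-KO lungs lay above all WT lungs, and replicates 6 and 8, at 59.3 and 37.4 CPM, stood far above the others. The log2 fold change was 4.24 ± 0.89 (SE; 18.9-fold; adjusted p = 0.00295, edgeR). Without Cic-S-KO replicate 6 it was 3.52 (adjusted p = 0.00801), and without both replicates 6 and 8 it was 2.59 (adjusted p = 0.0259).

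Cxcl3, its neighbour, had a WT range of 0.107 to 0.661 CPM (median 0.303) and a Cic-S-KO range of 0.414 to 19.6 CPM (median 1.5). Here 7 of 8 Cic-S-KO lungs lay above all WT lungs, and replicates 6 (19.6 CPM) and 8 (6.27 CPM) were again the highest. The log2 fold change was 3.59 ± 0.77 (adjusted p = 0.00341, edgeR). It was 2.47 (adjusted p = 0.00544) without Cic-S-KO replicate 6 and 1.76 (adjusted p = 0.016) without both. Cxcl3 and Cxcl2 share exon sequence, 126 stretches of 50 bases, or 3.51% and 5.84% of their stretches, so a small part of their reads could be assigned to either.

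Cxcl2 and Cxcl1, neutrophil attractants induced by interleukin 1 and tumour necrosis factor, followed the same 2 lungs more closely. Cxcl2 had a WT range of 0.0716 to 1.04 CPM (median 0.372) and a Cic-S-KO range of 0.331 to 13.6 CPM (median 1.07). Cxcl1 had a WT range of 0.321 to 0.992 CPM (median 0.522) and a Cic-S-KO range of 0.456 to 5.91 CPM (median 1.14). For each of them 4 of 8 Cic-S-KO lungs lay above all WT lungs and the groups overlapped. Their log2 fold changes were 2.90 for Cxcl2 and 1.87 for Cxcl1 and both were called (adjusted p = 0.0305 and 0.0103, edgeR). Without Cic-S-KO replicates 6 and 8 they were 0.87 (adjusted p = 0.452) and 0.82 (adjusted p = 0.14), and neither was called. The call of Cxcl2 was also lost without any 1 of Cic-S-KO replicates 6 and 8 and WT replicates 2, 5, 6 and 8 (adjusted p up to 0.0952, and a log2 fold change of 2.11 without Cic-S-KO replicate 6), with no filter on low counts (0.0614) and with a term for sex (0.0704).

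Cxcl15, which lies between Cxcl3 and Cxcl1, was not called in Cic-S-KO lung. It ranged from 916 to 1085 CPM in WT (median 1007) and from 889 to 1546 CPM in Cic-S-KO (median 1119), and replicate 6 was the highest. The log2 fold change was 0.20, with a 95% interval of 0.03 to 0.365 (adjusted p = 0.112, edgeR).

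Cxcl17, a mucosal ligand of airway epithelium, had the smallest p. It ranged from 2.81 to 6.91 CPM in WT (median 4.7) and from 9.27 to 19.8 CPM in Cic-S-KO (median 15.1), with all 8 Cic-S-KO lungs above all WT lungs. The log2 fold change was 1.59 ± 0.24 (3.01-fold; adjusted p = 0.000116, edgeR). Unlike the ligands above, replicates 6 and 8 did not stand apart, at 16.8 and 15 CPM. Of the club and goblet cell markers, 5 of 6 also rose (Clca1 by 5.42, Agr2 by 3.06, Muc5ac by 2.00 and Scgb3a2 by 0.84 on the log2 scale). Their summed level was 2917 to 4198 CPM in WT and 4079 to 6011 in Cic-S-KO lung. Their part in the result was not tested.

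The monocyte attractants of chromosome 11 rose in a more even way. Ccl2, the main ligand of CCR2 on monocytes, ranged from 0.791 to 1.37 CPM in WT (median 0.892) and from 1.04 to 4.64 CPM in Cic-S-KO (median 2.2), with 7 of 8 above all WT lungs. Ccl7, another CCR2 ligand, ranged from 0.47 to 1.04 CPM in WT (median 0.637) and from 0.882 to 3.54 CPM in Cic-S-KO (median 1.6), with 6 of 8 above all WT lungs. The log2 fold changes were 1.51 ± 0.28 for Ccl2 and 1.39 ± 0.29 for Ccl7 (adjusted p = 0.000617 and 0.00201, edgeR). Their neighbour Ccl12 had a log2 fold change of 0.94 and was not called (adjusted p = 0.0808).

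The second cluster of chromosome 11 held 3 called members. Ccl3, a ligand of CCR1, ranged from 0.211 to 0.616 CPM in WT (median 0.385) and from 0.994 to 5.81 CPM in Cic-S-KO (median 1.24). Ccl9, made by macrophages and other myeloid cells, ranged from 6.42 to 14.6 CPM in WT (median 7.36) and from 15.1 to 79 CPM in Cic-S-KO (median 25.4). In both genes all 8 Cic-S-KO lungs lay above all WT lungs, and replicate 6 was the highest. Ccl6, made by the same kinds of cell, ranged from 48.1 to 93.3 CPM in WT (median 60.8) and from 70.7 to 213 CPM in Cic-S-KO (median 114), with 6 of 8 above all WT lungs. The log2 fold changes were 2.10 ± 0.39 for Ccl3, 1.77 ± 0.35 for Ccl9 and 0.89 ± 0.21 for Ccl6 (adjusted p = 0.000761, 0.00213 and 0.00652, edgeR). Ccl5, the T cell and monocyte attractant of the same cluster, had a log2 fold change of -0.03 (adjusted p = 0.949).

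Ccl24 (eotaxin-2) and Ccl11 (eotaxin) are ligands of CCR3 on eosinophils. Ccl24 ranged from 0.241 to 0.922 CPM in WT (median 0.495) and from 0.53 to 8.92 CPM in Cic-S-KO (median 1.86). The high lungs were replicates 2, 5 and 6, at 8.92, 8.5 and 6.93 CPM, and 6 of 8 lay above all WT lungs. The log2 fold change was 2.86 ± 0.57 (7.26-fold; adjusted p = 0.00166, edgeR). Ccl11 had a log2 fold change of 1.01, from 0.963 to 2.27 CPM in WT to 1.48 to 7.17 CPM in Cic-S-KO. Ccl17, a ligand of CCR4 made by dendritic cells, ranged from 0.215 to 1.61 CPM in WT and from 0.53 to 2.57 CPM in Cic-S-KO. Its log2 fold change was 1.02 (adjusted p = 0.0425, edgeR), and the call was lost without any 1 of Cic-S-KO replicates 1, 2, 5, 6 and 8 and WT replicates 2, 4, 5, 6, 7 and 8 (adjusted p up to 0.0963), with no filter on low counts (0.0607) and in a fit to the genotypes compared alone (0.0869). Ccl22, its neighbour and fellow CCR4 ligand, had a log2 fold change of 0.09 (adjusted p = 0.837). None of the 2 tested eosinophil markers was called (Siglecf 0.40 and Il5ra 0.48 on the log2 scale), and the summed level of the 5 listed was 3.17 to 4.65 CPM in WT and 3.38 to 7.41 in Cic-S-KO lung.

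The remaining called members spanned a wide range of sizes. Cxcl16, a ligand of CXCR6, ranged from 20.5 to 30.3 CPM in WT (median 23.6) and from 23.8 to 39.4 CPM in Cic-S-KO (median 32.7), a log2 fold change of 0.41 ± 0.10 (adjusted p = 0.00645, edgeR). Of the exon bases of Cxcl16, 18.3% lie within exons of Zmynd15 on the other strand, and whether the counting used strand is not given in the sources used here, so its reads are uncertain to that extent. Cxcl10, an interferon-induced ligand of CXCR3, rose by 1.89 on the log2 scale. Of its exon bases, 5.91% lie within exons of Art3 on the other strand. Cxcl10 was at or above 3.29 CPM in Cic-S-KO replicates 4, 5, 6 and 8 and below 1 CPM in the other 4. The B cell attractant Cxcl13 had a log2 fold change of 0.85, Cxcl14, made by epithelium and stroma, one of 0.38, and Cx3cl1 one of 0.17. Adjusted p-values of the members ranked below the first 10, which were Cxcl10, Cxcl1, Ccl11, Cxcl14, Cxcl13, Cxcl2, Cx3cl1 and Ccl17, ran from 0.00782 to 0.0425 (edgeR). The call of Cx3cl1 was lost without any 1 of Cic-S-KO replicates 1, 5, 6 and 8 and WT replicates 1, 3, 5, 6 and 8 (adjusted p up to 0.0903), with no filter on low counts (0.139) and in a fit to the genotypes compared alone (0.0709). Cxcl9, the other interferon-induced ligand, had a log2 fold change of 2.04 and was not called (adjusted p = 0.0548).

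**Figure D3:**
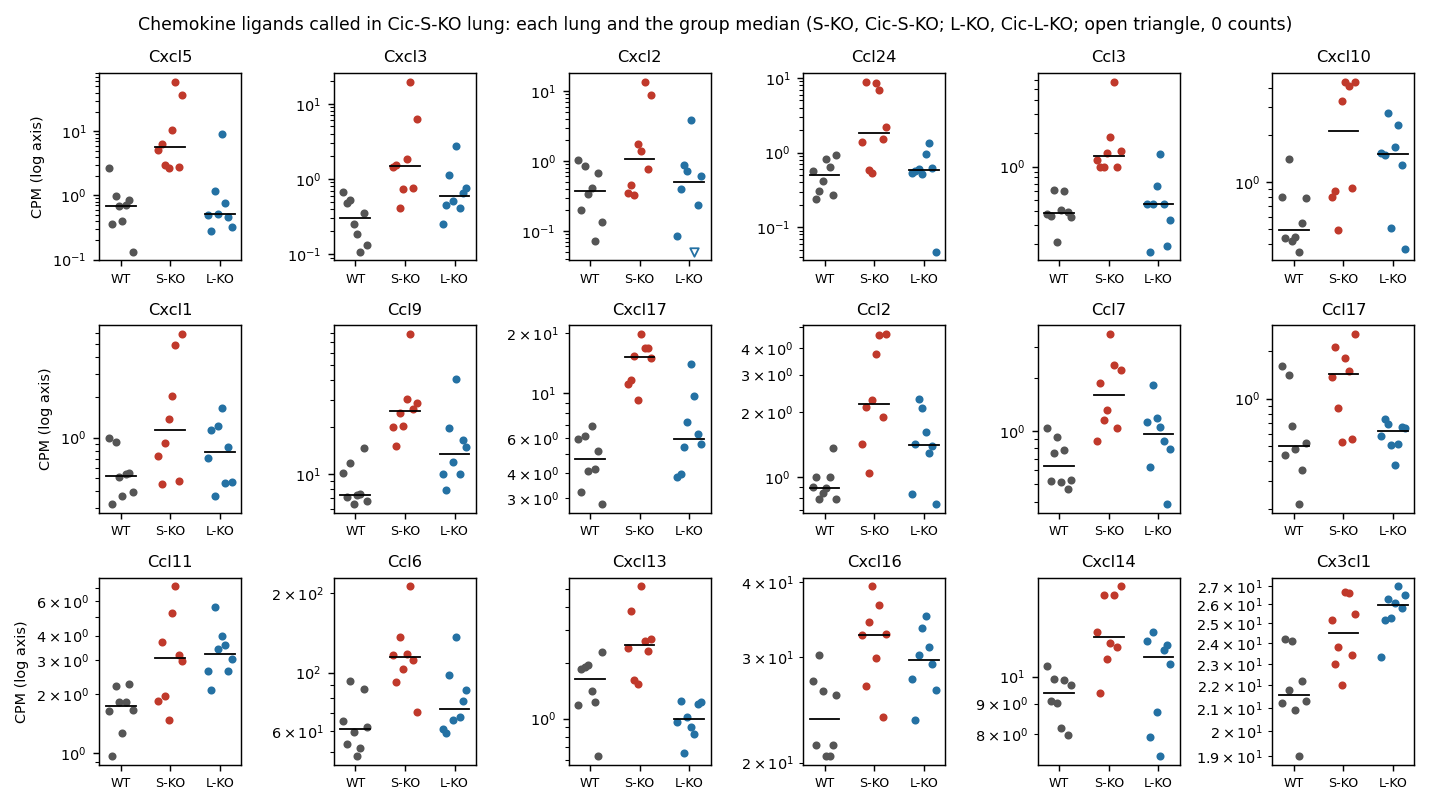
CPM on a log axis in each of the 24 lungs for the 18 chemokine ligands called in Cic-S-KO lung, with 8 points and a median bar for WT (grey), Cic-S-KO (red) and Cic-L-KO (blue), and an open triangle for a lung with 0 counts. The Cic-S-KO points of Cxcl5, Ccl3, Ccl9 and Cxcl17 all lie above the WT points, and those of Cxcl2, Cxcl1 and Cxcl10 spread from the WT range upwards.

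With Cic-S-KO replicates 6 and 8 left out, an alternative chosen after the data had been seen, 13 members were still called against WT and all were higher, where 11.6% of genes were called. Cxcl1, Cxcl2, Ccl17, Cx3cl1 and Cxcl14 were the members whose call was lost (Cxcl14 at 0.30 on the log2 scale, adjusted p = 0.0712). Without those lungs Ccl24 had a log2 fold change of 2.77, Cxcl17 of 1.54, Ccl3 of 1.54, Ccl9 of 1.35 and Ccl2 of 1.13.

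**Figure D4:**
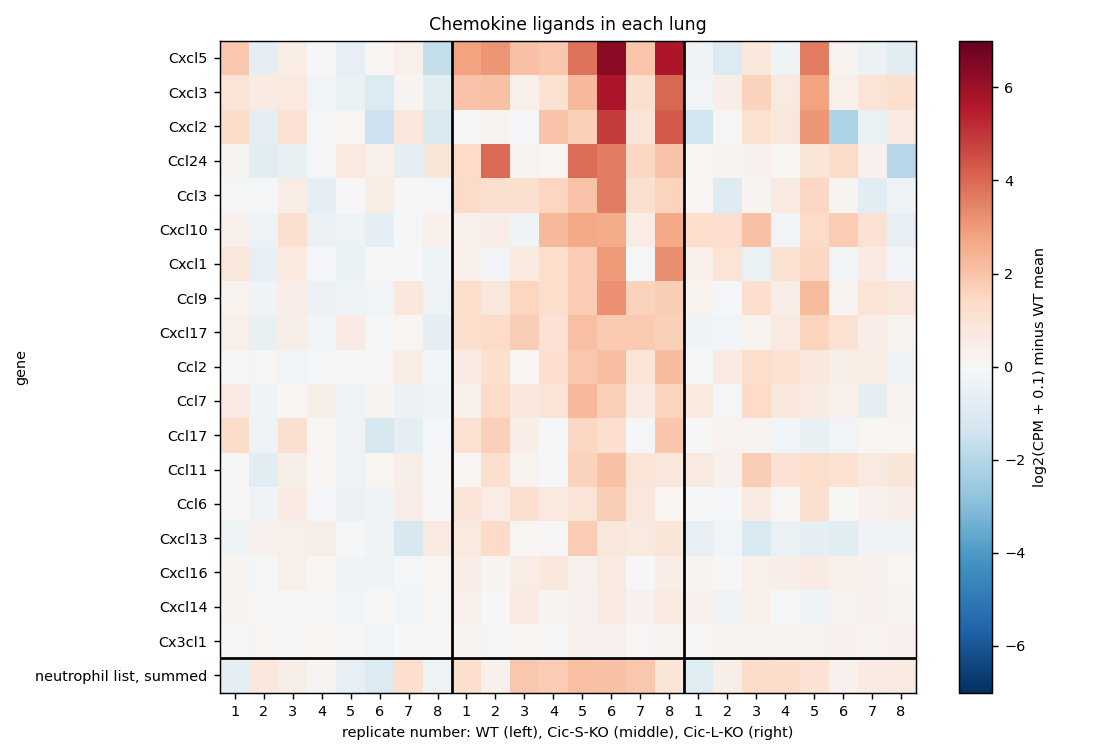
Difference of log2(CPM + 0.1) from the WT mean in each lung (columns, numbered by replicate within WT, Cic-S-KO and Cic-L-KO) for the 18 called ligands (rows), with the summed neutrophil markers in the lowest row. Cic-S-KO replicates 6 and 8 and Cic-L-KO replicate 5 are darkest for Cxcl5, Cxcl3 and Cxcl2, whereas Ccl24 is darkest in Cic-S-KO replicates 2, 5 and 6.

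The ligands did not all follow one order among the 8 Cic-S-KO lungs. Relations were computed between the 4 called ligands with the highest fold changes (Cxcl5, Cxcl3, Cxcl2 and Ccl24), as log2(CPM + 1), for 6 pairs. These 4 were picked by fold change from the same 8 lungs, and those of Cxcl5, Cxcl3 and Cxcl2 shrank without replicates 6 and 8. The choice thus favours ligands high in the same lungs, and the p-values below do not allow for it. Cxcl5 and Cxcl3 were correlated (Pearson r = 0.967, exact permutation p = 0.000223, adjusted over 6 pairs 0.00134; Spearman rho = 0.929, exact p = 0.00223, adjusted 0.0134; n = 8), and r was 0.904 without replicates 6 and 8, the 2 lungs farthest from the median. Cxcl5 with Cxcl2 had r = 0.906 (exact permutation p = 0.0118, adjusted 0.0237; rho = 0.5, exact p = 0.216, adjusted 0.259; n = 8). Cxcl3 with Cxcl2 had r = 0.915 (exact permutation p = 0.00761, adjusted 0.0228; rho = 0.690, exact p = 0.0694, adjusted 0.104; n = 8). Those relations rest on replicates 6 and 8, since r was 0.076 and 0.095 without them.

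Ccl24 was not shown to follow any of the others. Its Pearson r was 0.546 with Cxcl5, 0.512 with Cxcl3 and 0.279 with Cxcl2 (exact permutation p = 0.168, 0.198 and 0.49, adjusted 0.238, 0.238 and 0.49; n = 8). Spearman's rho was 0.714, 0.738 and 0.238 (exact p = 0.0576, 0.0458 and 0.582, adjusted 0.104, 0.104 and 0.582; n = 8). Without replicates 6 and 8, r was 0.877, 0.823 and 0.048. All of these values come from lungs of the same batch. Leaving out replicate 6 alone or replicate 8 alone reduced the pairs that passed by Pearson from 3 to 1.

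Other genes of chemokine signalling moved in Cic-S-KO lung as well. Of 12 tested chemokine receptors (19 listed), 7 rose and 0 fell, among them Ccr1 by 1.07, Ccr2 by 0.69 and Cxcr5 by 0.90 on the log2 scale. Of 3 atypical receptors, which take up ligands without signalling, none was called. Of 7 tested cytokines known to induce chemokines (16 listed), 4 rose: Tnf by 1.55, Il1a by 1.39, Il1b by 1.19 and Il33 by 0.93. The platelet ligand Pf4, outside the naming rule, rose by 0.46, and Ppbp had a log2 fold change of -0.18 (adjusted p = 0.403).

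Most tested markers of neutrophils and macrophages were also higher in Cic-S-KO lung, as were the club and goblet cell markers given above. Those of other cells were higher in part, lower or not called. All 8 tested neutrophil markers rose (Mmp8 by 1.60, Ltf by 1.56, S100a9 by 1.49 and Retnlg by 1.48 on the log2 scale), and the summed level of the 10 listed was 42 to 186 CPM in WT and 99.7 to 361 in Cic-S-KO lung. Of 7 tested macrophage markers 6 rose (C1qa by 1.10, Mrc1 by 0.70, Adgre1 by 1.00 and Cd68 by 1.09), with a summed level of 192 to 320 CPM in WT and 305 to 1079 in Cic-S-KO lung. No listed gene of either set was at 0 throughout. Of the tested markers of other leukocytes, 2 of 4 B cell, 2 of 4 mast cell and basophil and 1 of 6 T and NK cell markers rose, while of 6 dendritic cell markers 1 rose and 1 fell. The dendritic cell list includes Ccl22, itself one of the ligands studied, which was not called. Blood endothelium fell in 2 of 3 markers (Kdr by 0.18 and Cdh5 by 0.24 on the log2 scale) and lymphatic endothelium in 2 of 3 (Flt4 by 0.32 and Lyve1 by 0.47). Replicate 8, second highest for Cxcl5, had 150 CPM of neutrophil markers and 305 CPM of macrophage markers, the second lowest and the lowest of the 8. Replicate 6 had 345 and 1079. The part of these markers in the ligands' rise was not tested.

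In Cic-L-KO lung, 3 of the 27 tested members were called against WT, all higher, against 4.89% of all genes (10 members had an unadjusted p under 0.05). The median log2 fold change was 0.32 over the members and -0.001 over all genes. Ccl11 ranged from 2.1 to 5.61 CPM (median 3.24) against 0.963 to 2.27 CPM in WT (median 1.74), with 7 of 8 above all WT lungs. Its log2 fold change was 0.98 ± 0.27 (adjusted p = 0.0313, edgeR), beside 1.01 in Cic-S-KO. Cxcl15 ranged from 1019 to 1512 CPM (median 1244), a log2 fold change of 0.32 ± 0.09 (adjusted p = 0.0278), with 6 of 8 above all WT lungs. Cx3cl1 ranged from 23.3 to 27 CPM (median 25.9) against 19 to 24.2 in WT (median 21.5), a log2 fold change of 0.23 ± 0.06 (adjusted p = 0.0116), with 7 of 8 above. The call of Ccl11 was lost without any 1 of Cic-L-KO replicates 3, 5 and 6 and WT replicates 1, 2, 5 and 6 (adjusted p up to 0.0742). That of Cxcl15 was lost without any 1 of Cic-L-KO replicates 3, 5 and 8 and WT replicates 1, 5 and 6 (adjusted p up to 0.0661). With no filter on low counts neither Ccl11 (adjusted p = 0.0739, edgeR) nor Cxcl15 (0.0973) was called. The number called fell to 1 without Cic-L-KO replicate 3 or 5 or WT replicate 1, 5 or 6.

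One lung lacking the long form was high for the CXCR2-type ligands. Cxcl5 was at 9.2 CPM in Cic-L-KO replicate 5, Cxcl3 at 2.72 and Cxcl2 at 3.81, while the group medians were 0.506, 0.585 and 0.503 CPM. The same lung was the highest of its group for Ccl9 (40.8 CPM), Ccl3 (1.29 CPM) and Cxcl17 (14 CPM). Log2 fold changes of the group against WT were 0.98 ± 0.96 for Cxcl5, 1.36 ± 0.83 for Cxcl3 and 0.88 ± 0.96 for Cxcl2, and none was called.

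Compared directly, 9 members were higher in lungs lacking the short form and 0 were lower, against 12.2% of genes called. Cxcl13 was at 1.54 to 5.15 CPM in Cic-S-KO and 0.65 to 1.25 CPM in Cic-L-KO, with no overlap. Its difference was 1.47 ± 0.25 on the log2 scale (adjusted p = 0.000273, edgeR), and against WT the 2 knockouts lay on opposite sides, at 0.85 and -0.62, the latter not called (adjusted p = 0.156). Ccl3 differed by 1.83 ± 0.39, Ccl24 by 2.57 ± 0.56 and Cxcl17 by 1.05 ± 0.23 (adjusted p = 0.00236, 0.00378 and 0.00396). Cxcl5 differed by 3.26 ± 0.83 (adjusted p = 0.0124), by 4.77 without Cic-L-KO replicate 5 and by 2.55 without Cic-S-KO replicate 6. Cxcl3 differed by 2.23 ± 0.70 (adjusted p = 0.039), Ccl17 by 1.26 ± 0.35 (0.0185), Ccl2 by 0.89 ± 0.27 (0.0276) and Ccl7 by 0.88 ± 0.28 (0.0399).

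Several of these calls were lost when single lungs were left out. The difference then stayed at 0.735 to 1.017 for Ccl2 and 0.651 to 1.066 for Ccl7, and ran from 1.111 to 2.752 for Cxcl3. For Cxcl3 the call was lost without any 1 of Cic-L-KO replicates 1, 2, 3, 4, 6, 7 and 8 and Cic-S-KO replicates 6 and 8 (adjusted p up to 0.191, with a difference of 1.11 without Cic-S-KO replicate 6), with no filter on low counts (0.0811) and with a term for sex (0.0541). For Ccl2 it was lost without Cic-L-KO replicate 1 or 8 or Cic-S-KO replicate 5, 6 or 8 (adjusted p up to 0.0753). For Ccl7 it was lost without Cic-L-KO replicate 1, 2, 6, 7 or 8 or Cic-S-KO replicate 2, 5, 6 or 8 (adjusted p up to 0.132). In a fit to the genotypes compared alone, the adjusted p was 0.0977 for Cxcl3, 0.0632 for Ccl2 and 0.0642 for Ccl7 (edgeR). The number called rose to 14 without Cic-L-KO replicate 5. Without Cic-S-KO replicates 6 and 8 it fell to 4, against 8.94% of genes. These 4 were Cxcl13, Ccl24, Cxcl17 and Ccl3, and Cxcl5 then differed by 1.62 (adjusted p = 0.166, edgeR). Ccl11 and Cxcl9 had differences of 0.03 and -0.01, with 95% intervals of -0.47 to 0.54 and -1.25 to 1.22.

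In the adult brain most ligands were too low to test: 11 members were tested in cortex and 10 in cerebellum, and the inflammatory CXC cluster was represented by Cxcl5 alone. In Cic-S-KO cortex 0 of 11 members were called by edgeR, against 6.53% of genes (1 at an unadjusted p under 0.05, and 0 by DESeq2). That member was Cx3cl1, at a log2 fold change of -0.11 (adjusted p = 0.161). In Cic-L-KO cortex 4 of 11 were called, where 43.2% of all genes were, so the share of members was near the background.

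The 4 members of Cic-L-KO cortex moved in both directions. Cxcl12 ranged from 31.6 to 60.4 CPM in WT (median 40.3) and from 46.5 to 61 CPM in Cic-L-KO (median 56.5). The groups overlapped through WT replicate 4 at 60.4 CPM, and the log2 fold change was 0.40 ± 0.10 (adjusted p = 0.00243, edgeR). Cx3cl1 ranged from 702 to 857 CPM in WT (median 819) and from 634 to 755 CPM in Cic-L-KO (median 729), a log2 fold change of -0.18 ± 0.05 (adjusted p = 0.00262). Ccl27a, a ligand of CCR10, went from a median of 77.1 to 70.5 CPM, a log2 fold change of -0.17 (adjusted p = 0.0361). Ccl25, a ligand of CCR9, went from 6.61 to 8.11 CPM, a log2 fold change of 0.30 (adjusted p = 0.0406).

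The calls of Ccl27a and Ccl25 were near the threshold and were lost when single samples were left out. Their log2 fold changes then stayed at -0.195 to -0.136 for Ccl27a and 0.253 to 0.357 for Ccl25. The call of Ccl27a was lost without any 1 of Cic-L-KO replicates 1, 4, 6 and 8 and WT replicates 3, 4, 5, 7 and 8 (adjusted p up to 0.09), and that of Ccl25 without any 1 of Cic-L-KO replicates 1, 2 and 4 and WT replicates 1, 2, 5 and 8 (adjusted p up to 0.096). Ccl27a was also not called with no filter on low counts (adjusted p = 0.0752, edgeR) or with a filter at a mean of 50 counts (0.0558). Of the exon bases of Ccl25, 2.74% lie within exons of Elavl1 on the other strand. All 3 neuron markers fell in the same samples (Syt1 by 0.49, Snap25 by 0.49 and Rbfox3 by 0.28 on the log2 scale), with a summed level of 4853 to 5468 CPM in WT and 3350 to 4038 in Cic-L-KO. Of 3 blood endothelium markers only Kdr was called, higher by 0.80, and their summed level was 37.5 to 64.1 CPM in WT and 47.7 to 73.1 in Cic-L-KO. Of 3 fibroblast markers 0 rose and 1 fell (Dcn by 0.76). Of 5 tested macrophage markers 4 rose and 0 fell. Neither of the 2 tested choroid plexus markers was called, with a summed level of 14.2 to 539 CPM in WT and 6.57 to 1156 in Cic-L-KO. The part of all these markers in the values of Cx3cl1 and Cxcl12 was not tested.

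Between the knockouts, Ccl6 was the 1 member of 11 called in cortex, against 33.9% of genes. Cic-S-KO samples held 0.889 to 2.23 CPM (median 1.5) and Cic-L-KO samples 0.776 to 1.46 CPM (median 1.14), a difference of 0.53 ± 0.21 on the log2 scale (adjusted p = 0.0487, edgeR). The groups overlapped. The call was lost without any 1 of Cic-L-KO replicates 1, 2, 3, 5 and 7, Cic-S-KO replicates 1, 2, 5 and 6 and WT replicates 1, 2, 4 and 5 (adjusted p up to 0.135), and with no filter on low counts (0.0668).

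In cerebellum Cxcl12 rose in both knockouts. It ranged from 27.8 to 38.3 CPM in WT (median 31.6), from 31.8 to 49.8 CPM in Cic-S-KO (median 44.6) and from 39.6 to 51 CPM in Cic-L-KO (median 44.4). All 8 Cic-L-KO samples and 5 of 7 Cic-S-KO samples lay above all WT samples. Cic-S-KO had a log2 fold change of 0.42 ± 0.08 (adjusted p = 0.00218, edgeR) and Cic-L-KO one of 0.48 ± 0.08 (adjusted p = 7.18e-05). In Cic-S-KO 2 of 10 members were called, against 8.23% of genes, and in Cic-L-KO 2 of 10, against 21.5%. All 3 blood endothelium markers rose in Cic-L-KO (Kdr by 1.14, Cdh5 by 0.64 and Pecam1 by 0.42), with a summed level of 34.4 to 43.6 CPM in WT, 57.7 to 66.3 in Cic-L-KO and 30.8 to 55.4 in Cic-S-KO, where none was called. Of 3 fibroblast markers, Dcn rose in Cic-S-KO (by 0.65) and all 3 rose in Cic-L-KO (Col1a1 by 0.60, Pdgfra by 0.29 and Dcn by 0.20), with a summed level of 64.8 to 85.9 CPM in WT, 75.2 to 113 in Cic-S-KO and 85.7 to 104 in Cic-L-KO. Of 5 tested macrophage markers 3 rose in Cic-L-KO (Adgre1 by 0.55, Mrc1 by 0.43 and Csf1r by 0.23) and 0 in Cic-S-KO, with summed levels of 56.9 to 75.6 CPM in WT, 67.8 to 82.6 in Cic-L-KO and 57 to 84 in Cic-S-KO. The part of these markers in the level of Cxcl12 was not tested.

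The other called members of cerebellum were Ccl6 in Cic-S-KO and Cx3cl1 in Cic-L-KO. Ccl6 ranged from 0.397 to 0.925 CPM in WT (median 0.682) and from 0.886 to 1.63 CPM in Cic-S-KO (median 1.12), with 6 of 7 above all WT samples. Its log2 fold change was 0.86 ± 0.19 (adjusted p = 0.00616, edgeR), at a depth of 138 counts over the 8 WT samples and 207 over the 7 Cic-S-KO samples. Cx3cl1 ranged from 52.5 to 73.9 CPM in WT (median 59.9) and from 73.2 to 100 CPM in Cic-L-KO (median 80.4), with 7 of 8 above all WT samples, a log2 fold change of 0.46 ± 0.09 (adjusted p = 0.000795). All 3 neuron markers fell in both knockouts there, with log2 fold changes from -0.32 to -0.21. The rises of blood endothelium, fibroblast and macrophage markers given above for Cic-L-KO come from the same samples. The part of all these markers in the level of Cx3cl1 was not tested. Between the knockouts 0 of 10 members were called by edgeR, against 12.4% of genes (4 at an unadjusted p under 0.05, and 0 by DESeq2).

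**Figure D5:**
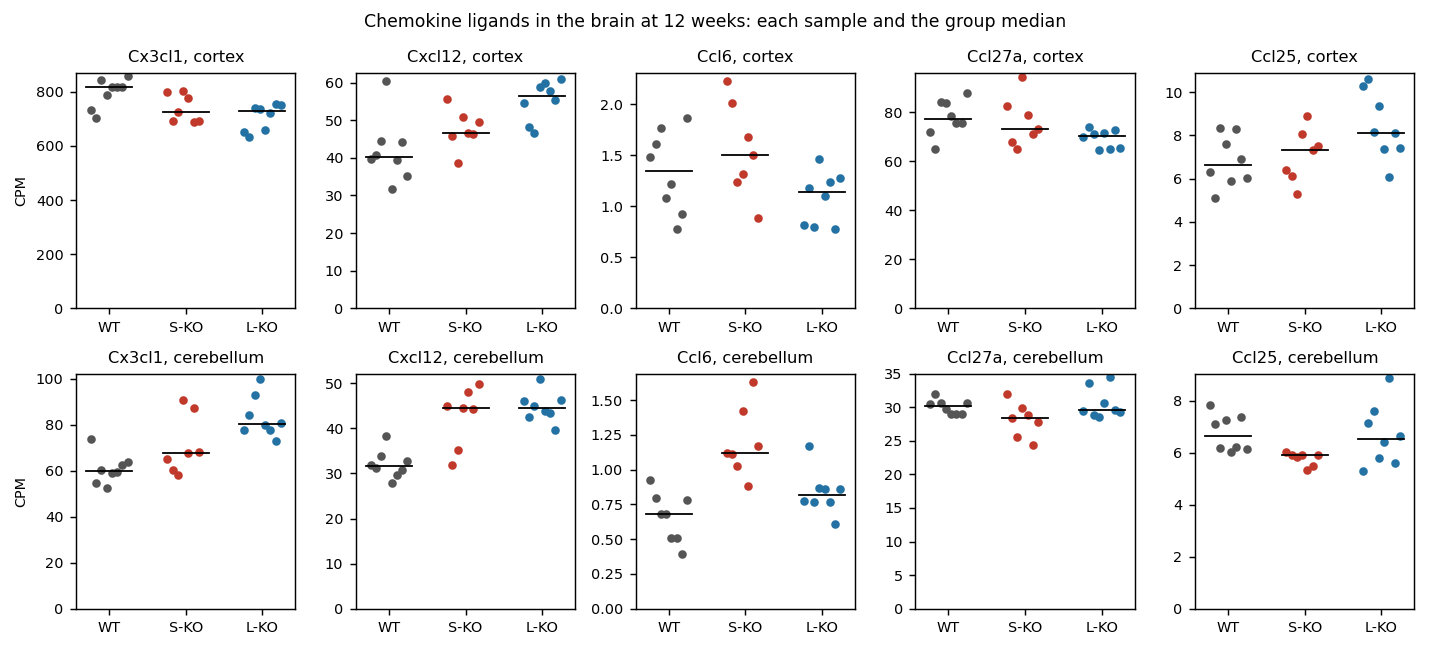
CPM in each sample of cortex (top) and cerebellum (bottom) at 12 weeks for Cx3cl1, Cxcl12, Ccl6, Ccl27a and Ccl25, with points for WT (grey, 8), Cic-S-KO (red, 7) and Cic-L-KO (blue, 8) and a bar at each median. The Cic-L-KO points of Cx3cl1 lie low in cortex and high in cerebellum, and those of Cxcl12 lie above all WT points in cerebellum.

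Cx3cl1 thus changed in opposite directions in the brain regions of Cic-L-KO mice, and the difference itself was tested over the 46 brain samples. The labels do not say whether both regions came from the same animals, and this fit had no term for the animal. The effect in cortex minus that in cerebellum was -0.63 ± 0.10 on the log2 scale (adjusted p = 7.26e-06, edgeR), and Cx3cl1 was the 1 member of 13 called, against 23.0% of genes. For Cic-S-KO the difference was -0.34 ± 0.105 (adjusted p = 0.0476), again for Cx3cl1 alone among 13 members, against 4.50% of genes. That call was lost with no filter on low counts (adjusted p = 0.126, edgeR), and leaving out single samples was not run for it. In Cic-S-KO the effect was -0.11 in cortex and 0.23 in cerebellum, and neither was called by itself (adjusted p = 0.161 and 0.121). Cx3cr1, its receptor on microglia, was not called in either region of either knockout. For Cxcl12 the difference was -0.09 ± 0.13 in Cic-L-KO, with a 95% interval of -0.34 to 0.16.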

How the data were processed

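RNA of flash-frozen tissue was sequenced after poly-A selection, per the labels' protocols. The deposited values are raw read counts per gene, made by the authors with STAR 2.7 on GRCm38.p6, per the submitters' processing notes. The counting program, the annotation release and the use of strand are not given in the sources used here. Of the 50789 gene IDs, 50639 matched GENCODE M21, which gave symbols, positions and exon lengths. None of 238 replicate pairs was identical.

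Counts were tested per tissue over all 3 genotypes with edgeR 4.0.16 in R 4.3.3 (TMM, low-count filter, robust quasi-likelihood test, Benjamini-Hochberg adjustment over all genes tested, threshold 0.05). The effects in cortex and cerebellum were compared by interaction contrasts over 46 brain samples. CPM used TMM library sizes within a tissue, and RPKM divided CPM by exon length. The scripts were tested on simulated data. Alternatives were DESeq2 1.42.0, other normalization, filters and thresholds, a sex term, a replicate block, 2 genotypes at a time, and samples left out.

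Each tested member past the threshold was named, with full statistics for the 10 with the smallest p in Cic-S-KO lung. The members, gene lists and rules were chosen with earlier results of these data known.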

Additional observations from a re-analysis of the deposited data

Results flagged for a closer look

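Single samples stood apart from their group by Dixon's test in 15 of 81 groups of values tested, where about 1 in 20 groups (4.05) would be marked by chance. Cic-S-KO lung replicate 6 stood apart for Cxcl3 (19.6 CPM), Ccl3 (5.81 CPM), Ccl9 (79 CPM) and Ccl6 (213 CPM). Cic-L-KO lung replicate 5 stood apart for Cxcl5 (9.2 CPM), Cxcl3 (2.72 CPM), Cxcl2 (3.81 CPM), Ccl3 (1.29 CPM) and Ccl9 (40.8 CPM). The summed neutrophil markers of these lungs were 345 and 167 CPM, and their part in the values was not tested.

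Among WT lungs, replicate 1 was high for Cxcl5 (2.69 CPM), replicate 3 for Cxcl10 (1.41 CPM) and replicate 7 for Ccl2 (1.37 CPM). Cx3cl1 was low in Cic-L-KO lung replicate 1 (23.3 CPM). In the brain, Cxcl12 was high in WT cortex replicate 4 (60.4 CPM) and Ccl6 in Cic-L-KO cerebellum replicate 2 (1.17 CPM).

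Cx3cl1 differed between brain regions by the interaction test. The log2 fold change in cortex minus that in cerebellum was -0.343 without the short form (Cic-S-KO) and -0.632 without the long form (Cic-L-KO).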

How the results depend on the processing

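Under the alternatives, none of the 41 results that were called changed sign where it was still tested. Members not called in the main fits were refitted too, and the counts of members called below include them. With DESeq2, and with RLE normalization, 41 of 41 kept their call. The labels do not say that a replicate number marks a shared animal, litter or day. Deviations of same-numbered samples had a mean correlation of 0.146 in lung (-0.021 for other numbers; 16 of 24 pairs over 0.1), 0.078 in cortex (-0.011), 0.022 in cerebellum (-0.003) and 0.087 between cortex and cerebellum (-0.013). Since not every pair was over 0.1, the block was not used in the main fits. The replicate numbers are those of the sample titles; in Cic-S-KO brain the library names carry other numbers, which were not tried. With the replicate block, 20% of genes were called in Cic-S-KO lung. The members that lost their call were Cxcl1 (adjusted p = 0.0552, edgeR), Cxcl2 (0.174) and Cx3cl1 (0.0522) in Cic-S-KO lung, Ccl2 (0.0528) and Cxcl3 (0.191) between the lung knockouts, and Ccl27a (0.0504) and Ccl25 (0.0709) in Cic-L-KO cortex, which left 2 there. In the Cic-L-KO interaction 2 were called, against 24% of genes, and 42.4% of genes were called in Cic-L-KO cortex.

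A log2 fold change of at least 0.5 left 1 member called in the lung, 0 in the cortex and 0 in the cerebellum of Cic-L-KO. Of all genes, 1.2%, 11.4% and 3.03% were called there. This threshold left 1 in Cic-S-KO cerebellum, against 1.06% of genes, and 0 in the Cic-S-KO interaction, against 1.05%. In Cic-S-KO lung, where 5.74% of genes were called, it dropped Cxcl16, Cxcl14 and Cx3cl1. With no filter on low counts, 1 was called in Cic-L-KO lung and 2 between the knockouts in cortex, against 1.59% and 14.1% of genes. In the interactions it gave 0 for Cic-S-KO (Cx3cl1 adjusted p = 0.126, edgeR) and 2 for Cic-L-KO, against 1.04% and 8.11%. That setting ended 9 calls, of Cxcl2, Cx3cl1 and Ccl17 in Cic-S-KO lung, Cxcl15 and Ccl11 in Cic-L-KO lung, Cxcl3 between the lung knockouts, Ccl27a in Cic-L-KO cortex, Ccl6 between the cortex knockouts and Cx3cl1 in the Cic-S-KO interaction. A mean of at least 50 counts left 8 in Cic-S-KO lung and 2 between the knockouts in lung. It left 0 between the knockouts in cortex and 1 in Cic-S-KO cerebellum. These lower numbers came from members that this filter removed from testing. Of the called results still tested, 21 kept their call and 1, Ccl27a in cortex, lost it (adjusted p = 0.0558, edgeR). With this filter, 18.9% of the genes tested were called in Cic-S-KO lung and 14.4% between the knockouts in lung. The shares were 41.2% between the knockouts in cortex and 12% in Cic-S-KO cerebellum. Only the 2 genotypes compared gave 2 between the knockouts in cortex, against 33.7% of genes. That setting ended 5 calls in lung, of Cx3cl1 and Ccl17 in Cic-S-KO and of Cxcl3, Ccl2 and Ccl7 between the knockouts. Leaving out Cic-S-KO replicates 6 and 8 gave 4 between the knockouts in lung, against 8.94% of genes. With a sex term, Cxcl2 (0.0704) and, between the knockouts, Cxcl3 (0.0541) lost their calls.

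Leaving out each sample in turn gave 15 to 19 members called in Cic-S-KO lung, 1 to 4 in Cic-L-KO lung and 6 to 14 between the knockouts. In cortex it gave 0 to 1, 2 to 4 and 0 to 2. Cortex Cic-S-KO had 1 called without WT replicate 4, and Cic-L-KO had 2 without Cic-L-KO replicate 1 or 4 or WT replicate 5 or 8. The knockouts differed in 2 without Cic-S-KO replicate 3. Between the knockouts in cerebellum it gave 0 to 1, the 1 without Cic-L-KO replicate 2 or Cic-S-KO replicate 4, 5 or 6. The relations past the threshold numbered 1 to 3. This was not run for the interactions. The low ligands rest on few counts, as few as 64 over the 8 WT lungs for Cxcl3.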
